A study of Mus musculus with 8 samples.

Results

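The genes described here are 10 members of the NF-kB pathway, namely the subunit genes Nfkb1, Nfkb2, Rela and Relb and the feedback and target genes Nfkbia, Nfkbie, Tnfaip3, Birc3, Bcl3 and Icam1. They were chosen by name: a probe belonged to the set if the accession given with it on the array belongs to 1 of these genes. All 10 were found, on 12 of the 55681 probes, with 2 probes each for Nfkb1 and Relb, and they are 10 of the 14131 genes tested. All 12 probes were well above background in all 16 tumours. Expression had been measured on 8 Agilent arrays with 2 colours, so that each array carried RNA of 2 tumours. Every tumour grew from a piece of MMTV-PyMT mammary tumour, a model in which the polyoma middle T antigen is driven by a mammary tumour virus promoter, placed orthotopically in wild-type FVB mice, so the tumours share the transgene and the strain of the host. Some mice received RANK-Fc, a soluble decoy receptor for RANK ligand, at 10 mg/kg into the peritoneum 3 times per week.

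There were 6 groups. In passage 2, 3 tumours had RANK-Fc both before and during that passage (P2 prior-and-current), 3 had it before only (P2 prior), 3 had it during only (P2 current) and 2 were controls (P2 control). In passage 1, 3 tumours had RANK-Fc (P1 RANK-Fc) and 2 were controls (P1 control). "Prior" stands for neoadjuvant in the submitters' wording, and "current" for adjuvant; that the neoadjuvant treatment fell in passage 1 is a reading of the group codes. Ages of the mice are not given. Each tumour has an animal code of its own, but the parent of a passage 2 tumour is not given, so tumours of a group may share one, and p-values measure the spread between these tumours only. The epithelial markers Krt8, Krt18, Epcam, Cdh1, Krt5, Krt14, Elf5 and Esr1 were above background in all 16 tumours. Between 47.5% and 56.5% of the spots of a channel were well above background and none was saturated. These are bulk samples, so fewer cells of a type and less RNA per cell cannot be told apart.

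NF-kB is a family of dimeric transcription factors that wait in the cytoplasm, bound to inhibitor proteins of the IkB family or kept as long precursors, until a kinase complex below receptors such as RANK, the TNF receptors or Toll-like receptors releases them. In the nucleus the dimers switch on their own inhibitors and several of their own subunits, so the level of these transcripts follows the activity of the pathway in many cell types. In the mammary gland, RANK signals through NF-kB in the luminal epithelium to drive its growth in pregnancy, and mice without RANK do not form milk-secreting lobules. Protein, cleavage and nuclear entry, where much of the control lies, were not measured on these arrays.

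Promoter sequences are shown for the members that carry a match to the kB consensus, the DNA element that NF-kB dimers bind, because the members are grouped here by that feedback. RefSeq promoter windows of assembly GRCm38.p6, which hold 250 bases before and 50 bases after a gene's start, were given for 8 of the 10 members; Nfkb1 and Relb have no entry. The consensus was taken as GGGRNNYYCC, where R is A or G, Y is C or T and N is any base, and only full matches counted. Of these 8, 5 held a match on either strand in at least 1 window, namely Nfkb2, Nfkbia, Nfkbie, Tnfaip3 and Bcl3. Rela, Birc3 and Icam1 held no full match in these windows. The Icam1 window does hold tggaaattcc, which departs from the pattern in its first base only. Of the 27025 genes with a window, 9.55% held a match. That share is a description, since the members were chosen as NF-kB genes and a gene can have more than 1 window. A match is a string of letters and was not tested as a binding site. The windows follow, 5′ to 3′ on the gene's own strand, with the matching bases in capitals. In Nfkb2 and Tnfaip3 both matching stretches are shown, and stretches merge matches that overlap or that read on both strands.
Nfkb2, chr19:46304487-46304786, plus strand: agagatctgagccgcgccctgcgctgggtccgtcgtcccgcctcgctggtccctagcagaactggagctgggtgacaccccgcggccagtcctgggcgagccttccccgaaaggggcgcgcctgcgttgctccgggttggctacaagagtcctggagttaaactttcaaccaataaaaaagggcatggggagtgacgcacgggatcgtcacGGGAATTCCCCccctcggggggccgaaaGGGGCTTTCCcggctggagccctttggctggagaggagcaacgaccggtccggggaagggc
Nfkbia, chr12:55492598-55492897, minus strand: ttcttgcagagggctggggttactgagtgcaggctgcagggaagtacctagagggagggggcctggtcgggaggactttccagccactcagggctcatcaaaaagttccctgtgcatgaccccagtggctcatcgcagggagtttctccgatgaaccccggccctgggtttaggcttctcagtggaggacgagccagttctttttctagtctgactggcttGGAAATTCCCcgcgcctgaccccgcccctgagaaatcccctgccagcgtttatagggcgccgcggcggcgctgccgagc
Nfkbie, chr17:45555450-45555749, plus strand: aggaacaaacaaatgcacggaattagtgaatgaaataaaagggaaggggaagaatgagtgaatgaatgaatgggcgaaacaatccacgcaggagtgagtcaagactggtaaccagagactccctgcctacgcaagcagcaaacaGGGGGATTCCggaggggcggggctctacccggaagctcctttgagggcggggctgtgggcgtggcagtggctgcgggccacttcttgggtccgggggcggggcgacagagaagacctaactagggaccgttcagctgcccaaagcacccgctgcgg
Tnfaip3, chr10:19015361-19015660, minus strand: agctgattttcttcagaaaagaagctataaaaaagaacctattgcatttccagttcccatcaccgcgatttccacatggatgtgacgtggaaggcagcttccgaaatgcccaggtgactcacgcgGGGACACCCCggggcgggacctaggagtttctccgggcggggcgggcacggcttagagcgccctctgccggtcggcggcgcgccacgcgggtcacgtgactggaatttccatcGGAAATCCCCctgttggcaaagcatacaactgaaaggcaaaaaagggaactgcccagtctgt
Bcl3, chr7:19822706-19823005, minus strand: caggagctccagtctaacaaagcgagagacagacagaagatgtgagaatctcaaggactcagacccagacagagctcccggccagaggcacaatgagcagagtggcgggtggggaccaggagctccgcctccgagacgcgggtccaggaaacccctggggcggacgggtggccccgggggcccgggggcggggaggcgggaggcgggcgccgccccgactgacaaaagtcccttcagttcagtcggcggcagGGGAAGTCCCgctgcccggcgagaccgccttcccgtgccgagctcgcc
The Nfkbia match begins 29 bases before the start and the Nfkbie match 106 bases before it. In Tnfaip3 the matches begin 125 and 12 bases before the start, and in Bcl3 the match begins 2 bases after it. A second Tnfaip3 window held no match, and 2 further Nfkb2 windows, which overlap and share a match, each held at least 1.

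Among the subunits, Nfkb1, on chromosome 3, encodes the p105 precursor of the p50 subunit, which carries no activation domain of its own. On the log2 scale of dye-adjusted intensities, Nfkb1 measured 8.14, 8.10 and 8.0 in P2 prior-and-current tumours, 8.36, 8.34 and 8.46 in P2 prior tumours, 8.19, 8.29 and 8.22 in P2 current tumours and 8.01 and 8.30 in P2 controls. It measured 8.46, 8.69 and 8.67 in P1 RANK-Fc tumours and 8.69 and 8.30 in P1 controls. The 3 highest values were in passage 1, and the 3 P2 prior-and-current tumours lay below the 3 P2 prior and the 3 P2 current tumours. How many of all genes separate such small groups was not counted, here or for the members below. The second Nfkb1 probe followed the first only loosely over the tumours, with r = 0.383 (n = 16), given as a description. In the second probe this separation was absent. The P2 prior-and-current tumour c626, at 8.05, lay above all 3 P2 current tumours, the highest of them at 7.94.

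Relb, on chromosome 7, encodes a subunit that works chiefly with p52 in the alternative arm of the pathway. Relb measured 9.17, 9.11 and 9.31 in P2 prior-and-current tumours, 9.74, 10.18 and 9.12 in P2 prior tumours, 9.51, 9.91 and 9.89 in P2 current tumours and 9.49 and 9.59 in P2 controls. It measured 9.88, 9.95 and 10.11 in P1 RANK-Fc tumours and 9.83 and 10.03 in P1 controls. All 3 P2 prior-and-current tumours lay below both P2 controls and below all 3 P2 current tumours, whereas the P2 prior tumours spanned nearly the whole range. Its second probe followed the first closely, with r = 0.991 (n = 16).

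Rela, on chromosome 19, encodes p65, the main activating subunit of the classical arm, and it was the steadiest member. Its 16 levels lay between 12.62 and 12.91, a range of 0.288 log2 units, and 1.85% of all genes had a smaller SD over the tumours. Nfkb2, also on chromosome 19, encodes the p100 precursor of p52, which is both a subunit and an inhibitor of Relb. Nfkb2 ranged from 9.01 to 9.67, both ends lying in P2 current tumours, and its group means lay between 9.13 in P2 controls and 9.35 in P2 current tumours. The order of the Nfkb2 and Rela group means holds no neighbours that differ beyond the spread within groups, which had a pooled SD of 0.175 and 0.0971.

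Of the inhibitors, Nfkbia, on chromosome 12, encodes IkBα, the quickest negative feedback of the pathway. Nfkbia averaged 12.24 ± 0.45 in P2 prior-and-current tumours, 12.22 ± 0.09 in P2 prior tumours, 12.50 ± 0.26 in P2 current tumours and 12.16 ± 0.41 in P2 controls (SD, n = 3, 3, 3 and 2). It averaged 12.41 ± 0.00083 in P1 RANK-Fc tumours and 12.48 ± 0.048 in P1 controls (SD, n = 3 and 2). Its extremes, 11.87 and 12.76, lay in a P2 control and a P2 prior-and-current tumour, so its range within passage 2 held all passage 1 values.

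Nfkbie, on chromosome 17, encodes IkBε, a slower inhibitor of the same family. Nfkbie measured 7.18, 7.47 and 8.13 in P2 prior-and-current tumours, 7.93, 8.49 and 7.70 in P2 prior tumours, 7.90, 8.35 and 8.07 in P2 current tumours and 7.83 and 7.96 in P2 controls. It measured 8.0, 8.34 and 8.11 in P1 RANK-Fc tumours and 7.91 and 8.47 in P1 controls. The lowest 2 of the 16 levels were both in P2 prior-and-current tumours, while the third tumour of that group lay among the others. Bcl3, on chromosome 7, encodes an IkB relative that works in the nucleus with p50 and p52 dimers. Bcl3 ranged from 12.36 to 13.13, and it was highest on average in P2 prior tumours, at 12.85 ± 0.25, against 12.64 ± 0.06 in P2 controls (SD, n = 3 and 2).

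Tnfaip3, on chromosome 10, encodes A20, a ubiquitin-editing enzyme that shuts down signalling above the kinase complex. Tnfaip3 measured 8.79, 8.51 and 9.24 in P2 prior-and-current tumours, 9.11, 8.89 and 8.83 in P2 prior tumours, 8.90, 9.46 and 9.57 in P2 current tumours and 8.79 and 9.15 in P2 controls. It measured 8.39, 8.60 and 8.22 in P1 RANK-Fc tumours and 8.38 and 8.80 in P1 controls. Of the 11 passage 2 tumours only 1 lay below 8.60, the highest of the P1 RANK-Fc tumours. The P1 control c566, at 8.80, lay above the P2 prior-and-current tumours c606 and c607 and the P2 control c641.

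Birc3, on chromosome 9, encodes cIAP2, a ubiquitin ligase that acts at TNF receptor complexes and protects cells from death. Birc3 measured 7.52, 7.79 and 7.83 in P2 prior-and-current tumours, 8.06, 8.12 and 7.55 in P2 prior tumours, 7.87, 8.18 and 8.27 in P2 current tumours and 7.89 and 8.15 in P2 controls. It measured 7.73, 7.97 and 7.73 in P1 RANK-Fc tumours and 7.89 and 8.18 in P1 controls. The P2 prior-and-current tumours lay below both P2 controls and below the 3 P2 current tumours.

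Icam1, on chromosome 9, encodes an adhesion molecule through which leukocytes bind endothelium, epithelium and each other. Icam1 measured 6.49, 6.92 and 7.34 in P2 prior-and-current tumours, 7.72, 7.66 and 6.65 in P2 prior tumours, 7.17, 8.70 and 7.39 in P2 current tumours and 7.75 and 7.75 in P2 controls. It measured 6.93, 7.17 and 7.24 in P1 RANK-Fc tumours and 7.25 and 7.30 in P1 controls. Icam1 varied most of the 10 members, over 2.21 log2 units, and 93.5% of all genes had a smaller SD. Its highest value was in 1 P2 current tumour, c635, and all other tumours lay at 7.75 or below.

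**Figure D1:**
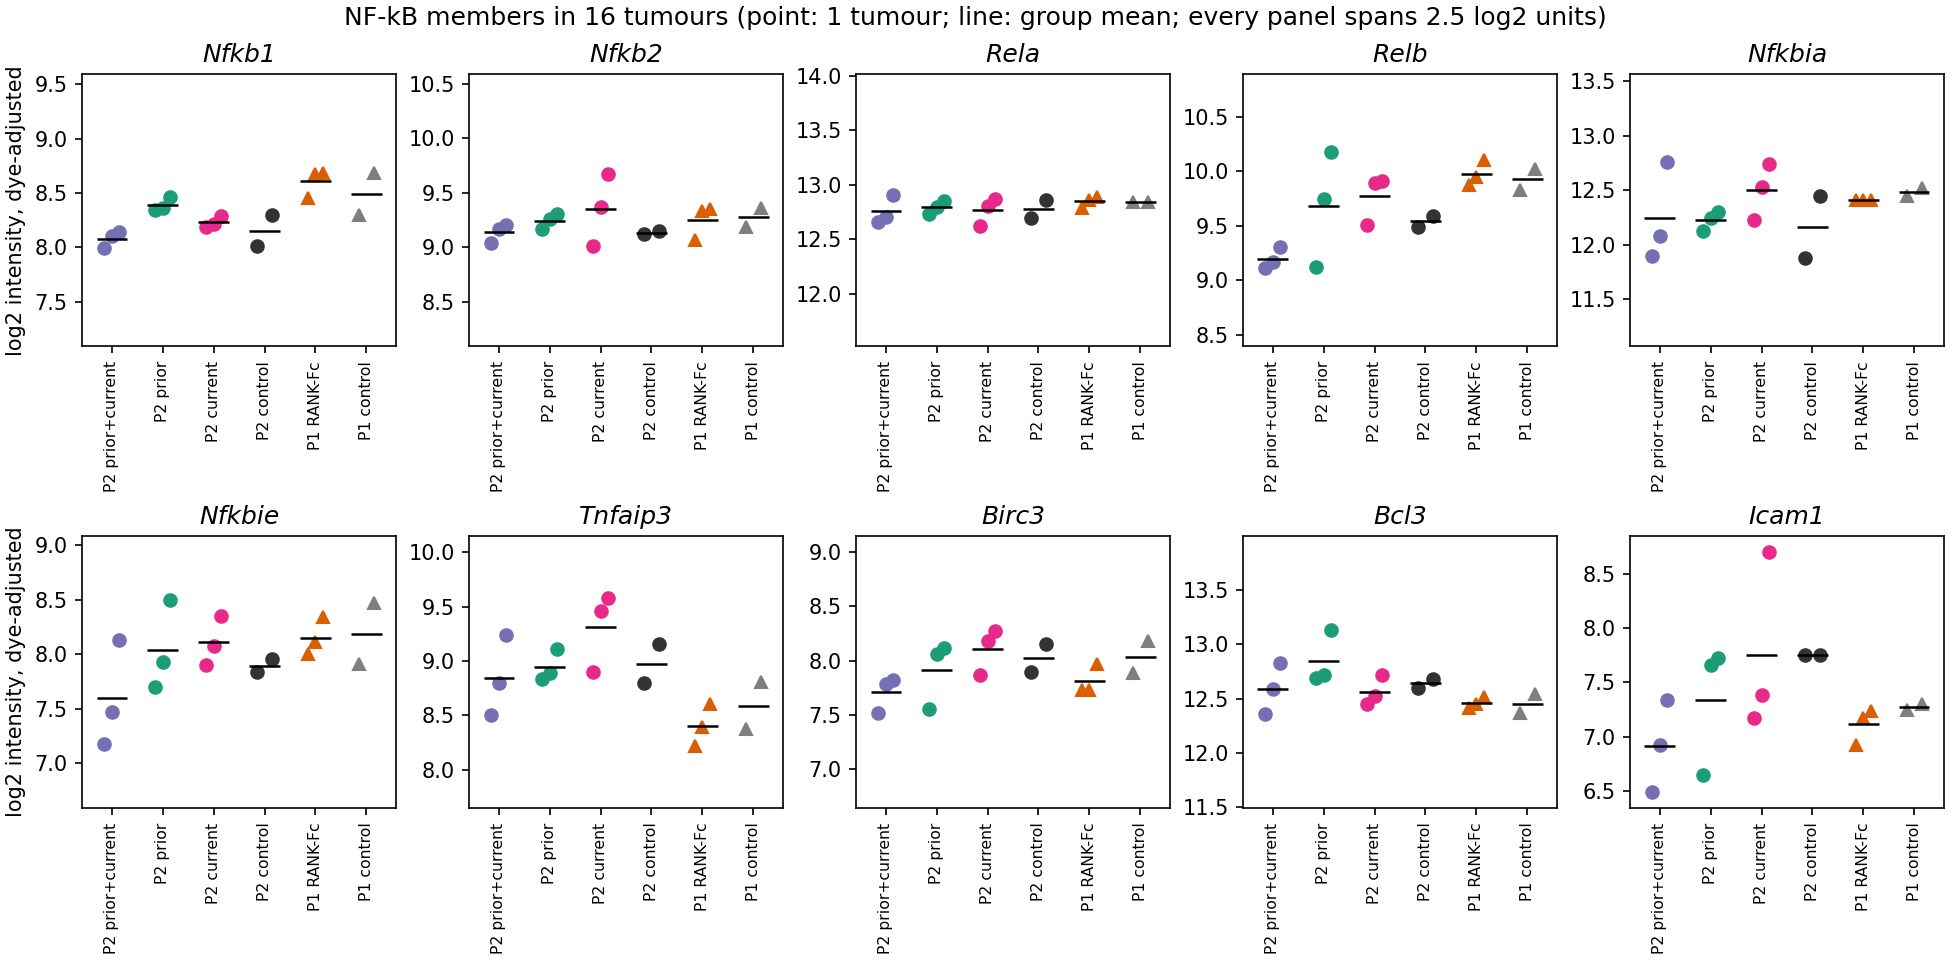
Dye-adjusted log2 intensity of each member (y axis) by group (x axis), with 1 point per tumour, triangles for passage 1, circles for passage 2, and a line at each group mean. All panels have the same height in log2 units. Rela stays within 0.288 units, and Icam1 covers 2.21 units.

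The first comparison asked whether members differed between passages, over the control and current RANK-Fc pairs of groups. In passage 2, Nfkb1 was lower and Tnfaip3 higher, and the other 8 members did not pass the test. Nfkb1 averaged 8.16 ± 0.20 in P2 controls, against 8.49 ± 0.27 in P1 controls, and 8.23 ± 0.05 in P2 current tumours, against 8.61 ± 0.13 in P1 RANK-Fc tumours (SD). Its log2 difference was -0.35 ± 0.10 (SE), a fold of 0.783, with an adjusted p of 0.0365 by limma. Each of the 5 passage 2 tumours lay below each of the 5 passage 1 tumours, though the closest pair both round to 8.30. In the second Nfkb1 probe the passages overlapped, with 7.94 in the P2 current tumour c646 and 7.80 in the P1 control c564. Tnfaip3 averaged 8.97 ± 0.25 in P2 controls, against 8.59 ± 0.30 in P1 controls, and 9.31 ± 0.36 in P2 current tumours, against 8.41 ± 0.19 in P1 RANK-Fc tumours (SD). Its log2 difference was 0.62 ± 0.17 (SE), a fold of 1.53, with an adjusted p of 0.038 by limma, and the 2 passages overlapped. Marker lists moved in the same comparison: fibroblast markers had a median of -0.80 (9 of 11 negative), adipocyte markers -0.86 (7 of 8 negative), T and NK cell markers 0.26 (11 of 11 positive) and interferon response genes, a program and no cell type, 0.23 (11 of 12 positive). None of these genes was called, and their part in the members' values was not tested.

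That makes 2 of 10 members called, against 12.2% of all genes in this comparison (4.23% higher and 7.92% lower), so the share among the members is near the background. The second Nfkb1 probe gave -0.27 ± 0.12 with an adjusted p of 0.175, which did not pass. Leaving out any 1 of c633, c567, c559, c607, c564, c641 and c646 ended the Nfkb1 call, and its difference was -0.23 without the P1 control c564 and -0.27 without the P2 control c641. Leaving out any 1 of c558, c608, c567, c566, c642, c564, c635, c641 and c646 ended the Tnfaip3 call, with differences from 0.50 to 0.76 over all omissions. Between the controls of the passages alone, none of the 10 members passed the limma test, against 3.36% of all genes. An unadjusted p under 0.05 was found for 1 member (Nfkb1, -0.33 ± 0.15) and for 15.5% of all genes. The second Nfkb1 probe gave -0.38 ± 0.18 there (SE, unadjusted p = 0.0559 by limma).

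No member changed detectably with current RANK-Fc. Averaged over its 3 backgrounds, the members' differences ran from -0.13 ± 0.09 for Bcl3 to 0.12 ± 0.13 for Nfkbia (SE), with a median of -0.04 against 0.00 for all genes. None of the 10 passed the limma test, none had an unadjusted p under 0.05, and 0% of all genes were called. The 95% interval of the Rela difference ran from -0.14 to 0.13, and that of Nfkb1 from -0.19 to 0.14. The interval of Icam1 was wider and ran from -0.58 to 0.40, and without the P2 current tumour c635 its difference was -0.39 against -0.09 with all tumours.

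Taken by background, no member was called either. In passage 1, RANK-Fc tumours against controls gave members' differences from -0.21 (Birc3) to 0.14 (Nfkb1), with 0 of 10 called, 0 at an unadjusted p under 0.05, and 0% of all genes called by limma. In passage 2, current RANK-Fc against control gave 9 of 10 positive differences with a median of 0.23, against 0.02 for all genes, led by Tnfaip3 at 0.39 ± 0.23, Nfkbia at 0.38 ± 0.23 and Nfkb2 at 0.27 ± 0.15 (SE). None of the 10 was called by limma, none had an unadjusted p under 0.05, and 0% of all genes were called. These 9 differences all rest on the same 2 controls: without the P2 control c641, 5 of 10 were positive with a median of 0.04, and without the P2 current tumour c635, 6 were, with a median of 0.06. Marker lists moved the same way, with medians of 1.29 for interferon response genes (12 of 12 positive), 0.82 for fibroblast markers (11 of 11), 0.43 for macrophage markers (11 of 11) and 0.10 for T and NK cell markers (11 of 11), and none of these genes was called. The fibroblast markers averaged 10.84, 10.57 and 12.69 in the P2 current tumours, the last of them c646, against 10.22 and 10.75 in P2 controls. The part of these lists in the members' values was not tested.

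With prior RANK-Fc, as the mean of its effect in the 2 backgrounds of passage 2, there were 7 of 10 negative differences with a median of -0.18, against 0.00 for all genes. Icam1 had the largest, at -0.55 ± 0.28, and Birc3 followed at -0.25 ± 0.13 and Tnfaip3 at -0.25 ± 0.17 (SE). The Icam1 value was -0.25 without the P2 current tumour c635, that of Birc3 -0.15 without the P2 control c642 and that of Tnfaip3 -0.11 without c642. None of the 10 was called by limma and none had an unadjusted p under 0.05, against 0.382% of all genes called. The medians of marker lists were negative too, at -0.64 for interferon response genes (12 of 12 negative), -0.61 for T and NK cell markers (10 of 11), -0.52 for macrophage markers (11 of 11) and -0.41 for dendritic cell markers (5 of 6), with none of these genes called and their part in the members' values not tested. In the P2 prior tumours against P2 controls, 0 of 10 were called and 0 had an unadjusted p under 0.05, against 0.00708% of all genes called.

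In P2 prior-and-current tumours, most members averaged lower than in P2 current tumours, without passing the test. Over the members, 9 of the 10 differences were negative with a median of -0.36, against 0.00 for all genes. Nfkbie differed by -0.51 ± 0.26 (SE). Relb differed by -0.55 ± 0.21 (SE, adjusted p = 0.22 by limma), Birc3 by -0.40 ± 0.17 (adjusted p = 0.272) and Tnfaip3 by -0.47 ± 0.21 (adjusted p = 0.288), and these 3 had an unadjusted p under 0.05, as did 16.8% of all genes. Icam1 differed by -0.80 ± 0.37, with an interval from -1.60 to 0.0022, and by -0.13 without the P2 current tumour c635. None of the 10 was called, against 0.142% of all genes, so these values do not pass the test. The same tumours held lower levels of other lists: the interferon response genes had a median of -1.13 (12 of 12 tested negative), macrophage markers -0.89 (11 of 11), T and NK cell markers -0.69 (11 of 11) and fibroblast markers -0.81 (11 of 11). The fibroblast mean stood apart in the P2 current tumour c646: it lay between 10.31 and 10.87 in the 3 P2 prior-and-current tumours, and was 10.84, 10.57 and, in c646, 12.69 in P2 current tumours. None of these genes passed the test there, and their part in the members' values was not tested.

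The P2 prior tumours share the earlier treatment with the P2 prior-and-current tumours. Against them, the P2 prior-and-current tumours differed by -0.32 ± 0.12 in Nfkb1 and by -0.30 ± 0.14 in Bcl3 (SE). The second Nfkb1 probe gave -0.14 ± 0.14 (SE, unadjusted p = 0.357 by limma). Nfkb1 and Bcl3 were the 2 members with an unadjusted p under 0.05, as were 9.96% of all genes, and the Bcl3 difference was -0.13 without the P2 prior tumour c609; 0 of 10 members and 0% of all genes were called by limma. Against the P2 controls, the same tumours had 0 of 10 members called and 0 at an unadjusted p under 0.05, against 0.0708% of all genes called; Icam1 differed by -0.61 ± 0.42 and Relb by -0.28 ± 0.24 (SE).

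The interaction asked whether current RANK-Fc acted differently in tumours with and without prior RANK-Fc. All 10 estimates were negative, with a median of -0.39 against -0.01 for all genes, of which 48.1% were positive. Relb gave -0.69 ± 0.29, Nfkbie -0.63 ± 0.36 and Nfkb1 -0.41 ± 0.17 (SE). Nfkb1 and Relb had an unadjusted p under 0.05, as did 6.76% of all genes. By limma 0 of 10 members and 0% of all genes were called. The second Nfkb1 probe gave -0.34 ± 0.21 (SE, unadjusted p = 0.12 by limma). All 10 estimates share the same 11 tumours, and 8 of the 10 were negative without the P2 control c641 (median -0.22) or without the P2 current tumour c635 (median -0.26). Without c641, Nfkb1 gave -0.21, and without the P2 prior tumour c608, Relb gave -0.46. The marker lists had negative medians as well, at -1.22 for fibroblast markers (11 of 11), -1.04 for interferon response genes (12 of 12), -0.70 for macrophage markers (11 of 11) and -0.25 for T and NK cell markers (11 of 11), whereas adipocyte markers had 0.82 (8 of 8 positive). None of these genes was called and their part in the estimates was not tested. The fibroblast mean was 12.69 in the P2 current tumour c646, against 10.84 and 10.57 in the others of that group. In P2 prior tumours it was 11.71 in c608, against 10.52 and 11.04. Over the differences among all 6 groups, the F test called 0 of 10 members, against 4.84% of all genes; the smallest adjusted p-values were 0.0937 for Nfkb1, 0.157 for Tnfaip3 and 0.242 for Relb.

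**Figure D2:**
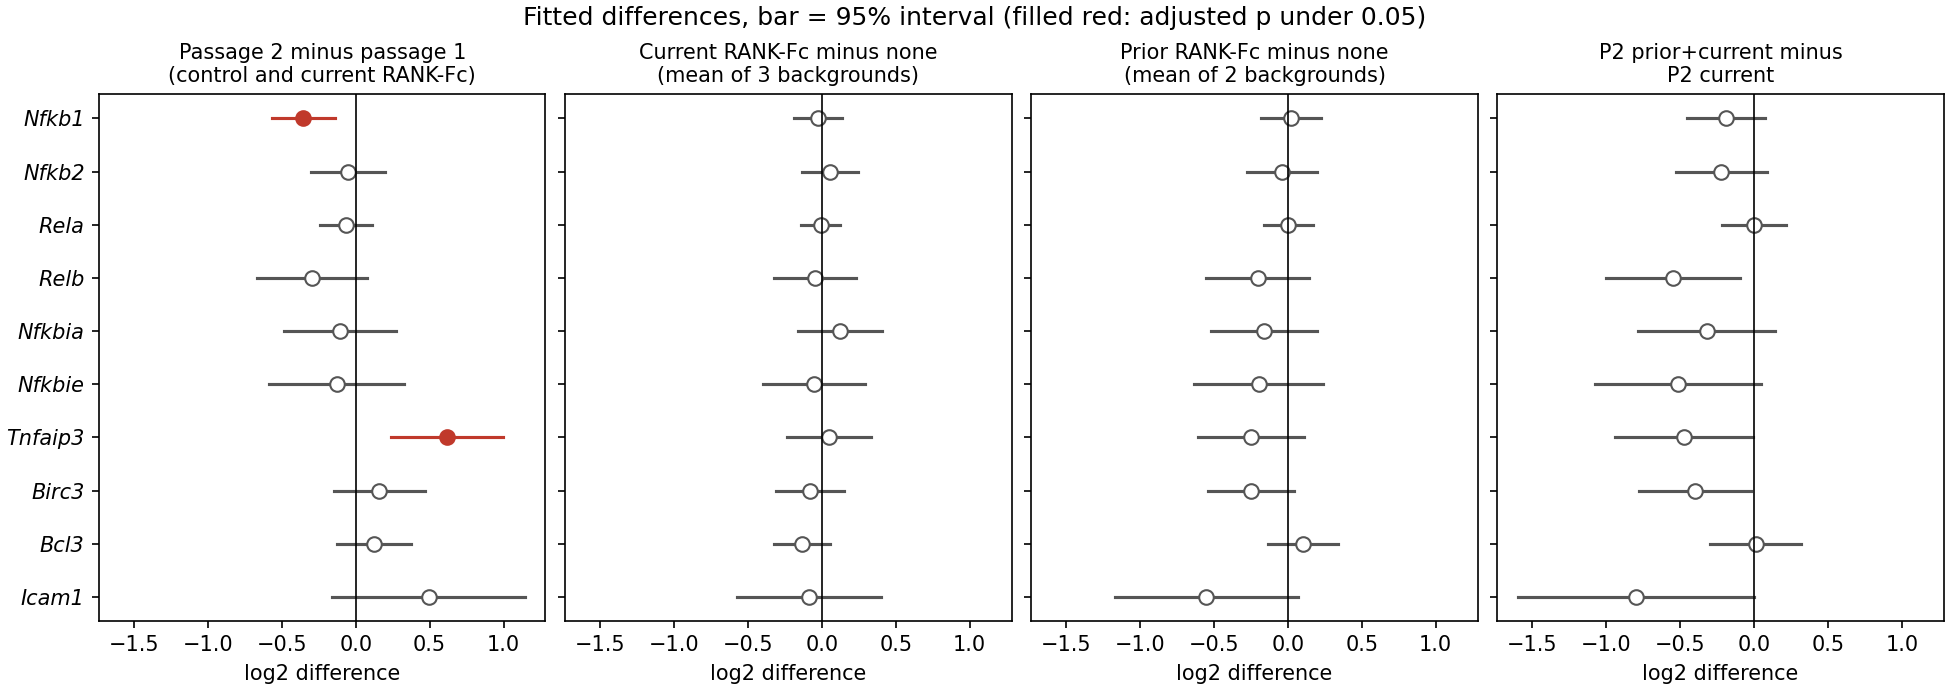
Log2 differences of the 10 members (y axis) in 4 comparisons, with 95% intervals as bars on the x axis and filled red points for an adjusted p under 0.05. Only Nfkb1 at -0.35 and Tnfaip3 at 0.62, both between passages, are filled; the P2 prior-and-current tumours minus the P2 current tumours lie mostly left of 0.

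Co-variation across the 16 tumours was described next, over all 45 pairs of members. Nfkbie and Relb rose and fell together most closely, and Birc3, Icam1 and Nfkbie formed further pairs. The median r was 0.344, 32 of the 45 coefficients were above 0 and 13 pairs had an unadjusted permutation p under 0.05. What share of pairs of all genes reaches such values was not computed, so these counts describe the members only. The permutation tests used 100000 resamples and were two-sided, with Benjamini-Hochberg adjustment over the 45 pairs, and 3 pairs passed. Here and for the marker lists below, tumours were shuffled without regard to group or shared array. Differences between groups can therefore count as co-variation in these p-values. The tumours share arrays in pairs and were normalised together, so the coefficients are also given within the 8 tumours of each dye.

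Relb and Nfkbie gave r = 0.815 (adjusted permutation p = 0.0027) and rho = 0.844 (adjusted permutation p = 0.0036), with r = 0.768 without the 2 tumours farthest from the Relb median. Here and below, the gene named first in a pair set which tumours were left out. Tumours extreme in the other gene could stay in. Within the 11 passage 2 tumours r was 0.829 (adjusted permutation p = 0.0351). Within the 8 Cy5 tumours r was 0.925 and within the 8 Cy3 tumours 0.396, and over residuals from the group means it was 0.70. The pair passed in passage 2 as well, and its r was lower in Cy3 than in Cy5, a difference that was not tested.

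Birc3 and Icam1 gave r = 0.739 (adjusted permutation p = 0.0178) and rho = 0.782 (adjusted permutation p = 0.0135). Without the 2 tumours farthest from the Birc3 median r was 0.749, and c635, the highest in Icam1 at 8.70, stayed in. In passage 2 r was 0.791 (adjusted permutation p = 0.0406). Within Cy5 the value was 0.842 and within Cy3 0.281. Nfkbie and Birc3 gave r = 0.693 (adjusted permutation p = 0.0376) and rho = 0.609 (adjusted permutation p = 0.162), with r = 0.547 without the 2 farthest tumours. In passage 2 that pair gave 0.762 (adjusted permutation p = 0.0538), and within the dyes 0.835 in Cy5 and 0.0433 in Cy3, so it did not pass in passage 2.

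In passage 2 alone 4 pairs passed, and 2 of them were among the 3 that passed over all tumours. The other 2 were Relb with Birc3, at r = 0.865 (adjusted permutation p = 0.0351), and Nfkbia with Tnfaip3, at 0.804 (adjusted permutation p = 0.0406). Over all 16 tumours those pairs gave 0.611 and 0.353. Relb with Birc3 gave 0.762 in Cy5 and 0.176 in Cy3, and Nfkbia with Tnfaip3 gave 0.423 in Cy5 and 0.320 in Cy3. Nfkb1 and Tnfaip3, which differed between passages in opposite directions, gave r = -0.522 over 16 tumours, 0.146 in passage 2, -0.0114 in Cy5 and -0.712 in Cy3.

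Bcl3 had a median r of -0.249 with the other 9 members and stood below 0 with 7 of them, from -0.431 with Rela to -0.0789 with Nfkb1. No Bcl3 pair passed, and whether Bcl3 differs from the other members in this was not tested. The signs depended on the scaling and the tumours: with median centring of each channel 4 of the 9 lay below 0 and the median was 0.0144, with Rela at 0.384, Nfkb1 at 0.171 and Nfkbia at 0.0144. In the Cy5 tumours 6 of the 9 lay below 0, whereas in the Cy3 tumours 5 did, and there Bcl3 gave 0.784 with Icam1, 0.732 with Birc3 and 0.713 with Tnfaip3. Without the 2 tumours farthest from the Bcl3 median, Bcl3 gave 0.437 with Icam1, against -0.212 with all 16. The medians with the other 9 were 0.572 for Nfkbie, 0.488 for Birc3 and 0.466 for both Relb and Icam1 over all 16 tumours.

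**Figure D3:**
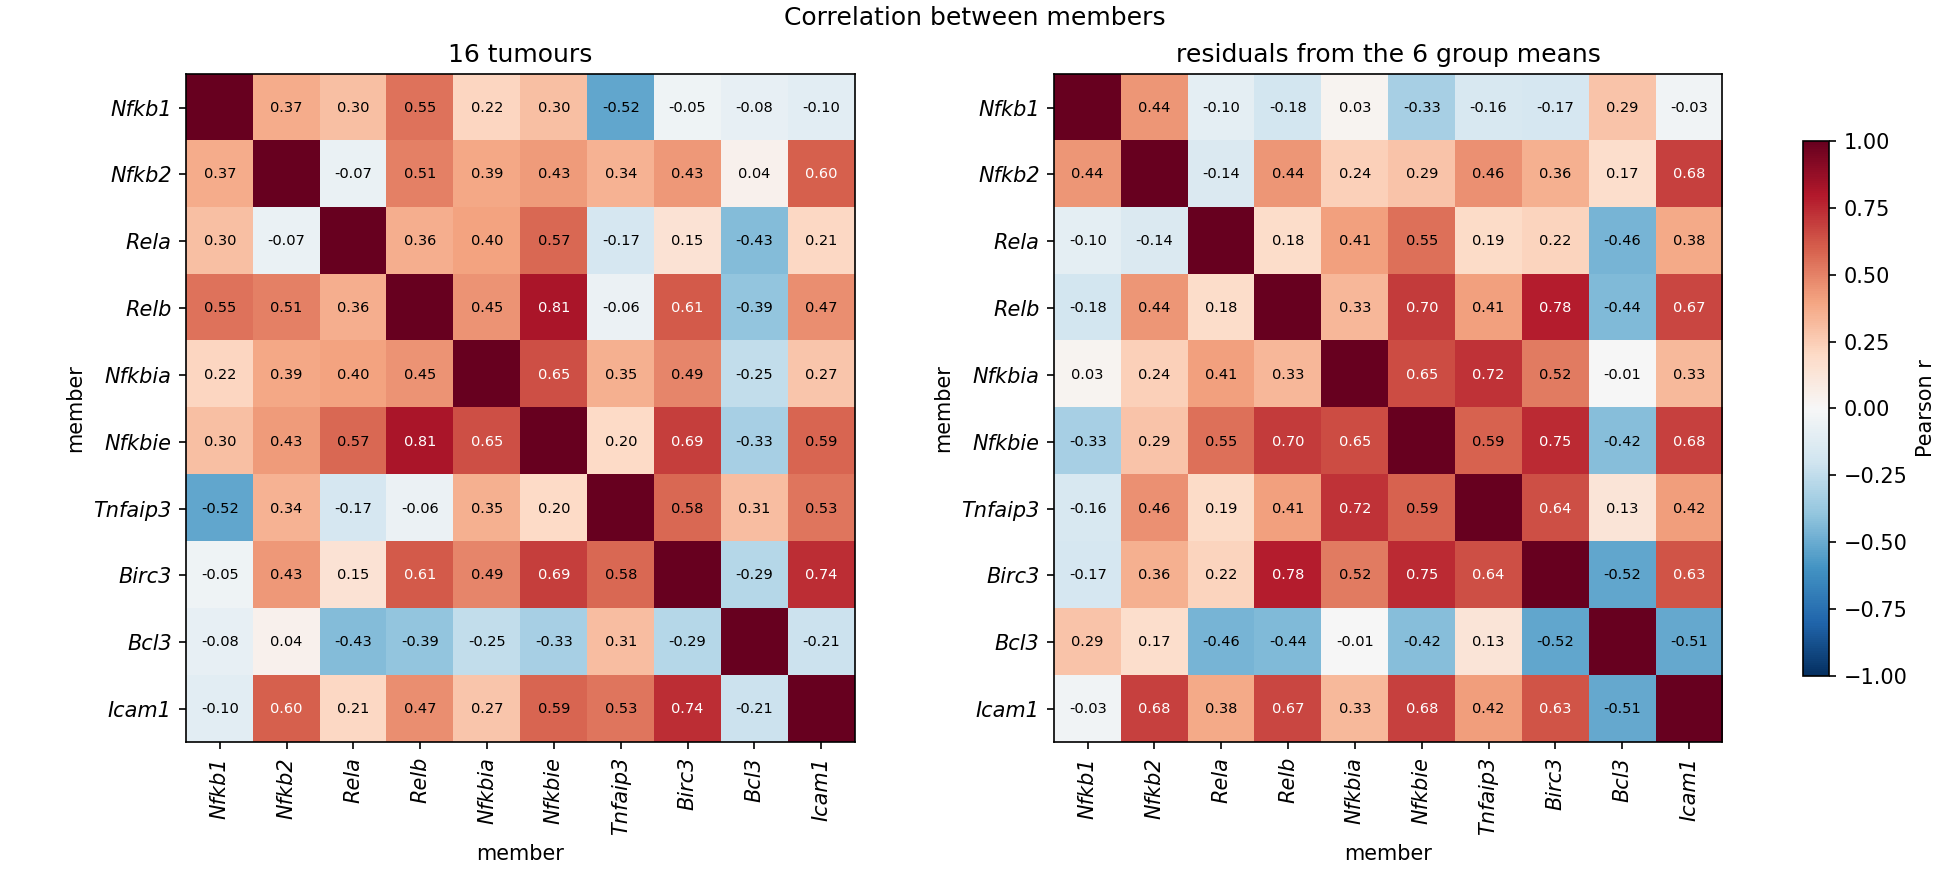
Pearson r between members over the 16 tumours (left) and over residuals from the 6 group means (right), with members on both axes and red for positive, blue for negative. Relb with Nfkbie gives 0.81 at left and 0.70 at right, and the Bcl3 row is mostly blue.

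The members' levels were set beside marker lists of other cell types, of which 110 relations were computed and 9 passed. The share that passes among all genes was not computed, so this count describes the members only. Birc3 followed the mean of 11 T and NK cell markers with r = 0.889 and rho = 0.929 (adjusted permutation p = 0.000367 and 0.00055), and the mean of 6 dendritic cell markers with r = 0.873 and rho = 0.924 (the same adjusted p-values; the unadjusted 1e-05 is the smallest the permutations can give). Icam1 followed the T and NK cell markers with r = 0.875 and rho = 0.824 (adjusted permutation p = 0.000367 and 0.00733). Without the 2 tumours farthest from the median of the marker list, these 3 gave 0.884, 0.846 and 0.738, and in passage 2 they gave 0.881, 0.891 and 0.934. In Cy5 and in Cy3 Birc3 gave 0.915 and 0.860 with the T and NK cell markers and 0.907 and 0.763 with the dendritic cell markers, and Icam1 gave 0.914 and 0.526 with the T and NK cell markers.

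The T and NK cell list had 11 of 14 genes tested, with no passing probe for Trac, Ncr1 and Klrb1c. Its mean lay between 7.55 and 8.20 in P2 prior-and-current tumours, 7.69 and 8.44 in P2 prior tumours, 8.22 and 9.08 in P2 current tumours and 8.52 and 8.64 in P2 controls. In passage 1 it lay between 8.09 and 8.44 in RANK-Fc tumours and 8.26 and 8.67 in controls. The dendritic list had 6 of 8 genes tested, with no passing probe for Xcr1 and Clec9a. The part of these markers in the levels of Birc3 and Icam1 was not tested.

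Other relations that passed were Birc3 with interferon response genes (r = 0.830, rho = 0.738, adjusted permutation p = 0.00247 and 0.0361) and with macrophage markers (r = 0.712, rho = 0.750, adjusted permutation p = 0.0214 and 0.0346). Nfkbie followed dendritic cell markers (r = 0.769, adjusted permutation p = 0.0132; rho = 0.632, adjusted 0.0722), and Nfkbia followed interferon response genes (r = 0.699, adjusted permutation p = 0.0348; rho = 0.674, adjusted 0.0548). Rela went against neutrophil markers (r = -0.727, adjusted permutation p = 0.0191, and rho = -0.612, adjusted 0.0882). The neutrophil list had 5 of 10 genes tested, with no passing probe for Ly6g, Mpo, Cxcr2, Ngp and Retnlg. The Rela levels span only 0.288 log2 units. Icam1 with dendritic cell markers gave r = 0.739 (adjusted permutation p = 0.0243) and 0.462 without the 2 tumours farthest from the median of that list, so it leans on those. Within Cy5 and Cy3, Birc3 gave 0.882 and 0.682 with interferon response genes and 0.762 and 0.774 with macrophage markers. Nfkbie gave 0.813 and 0.472 with dendritic cell markers, Nfkbia 0.809 and 0.664 with interferon response genes, and Rela -0.821 and -0.756 with neutrophil markers. Icam1 with dendritic cell markers gave 0.852 in Cy5 and -0.0315 in Cy3. In passage 2 the Birc3 and Icam1 relations with T and NK cell and dendritic cell markers passed, and the other 5 did not by r.

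**Figure D4:**
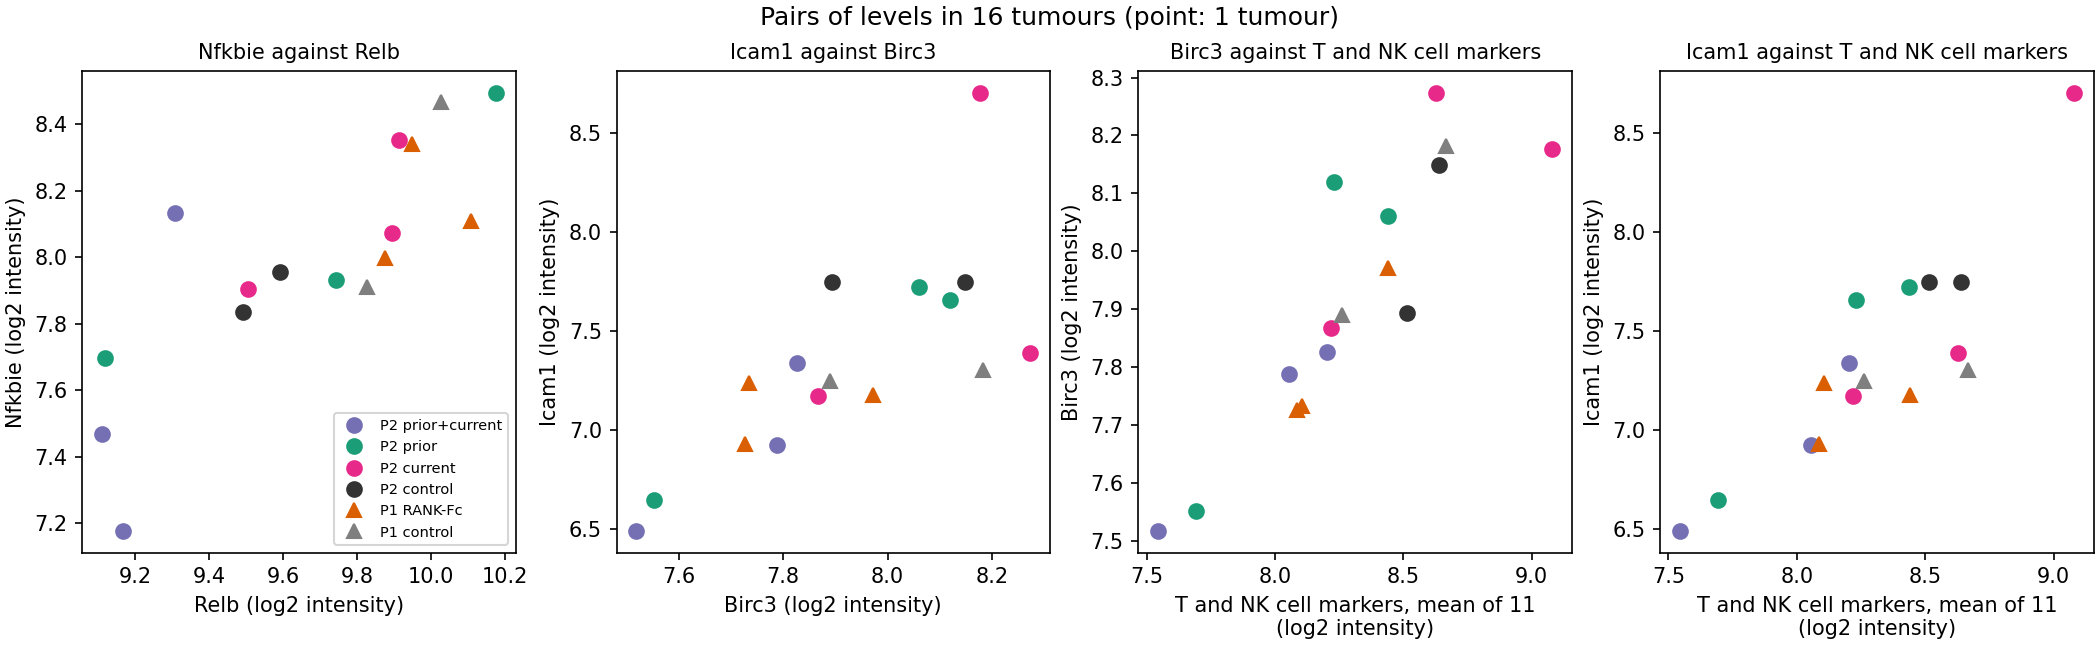
Log2 levels of pairs in the 16 tumours, with 1 point per tumour coloured by group, triangles for passage 1 and circles for passage 2. Nfkbie rises with Relb (r = 0.815), and Birc3 and Icam1 rise with the mean of 11 T and NK cell markers (r = 0.889 and 0.875).

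For each member, up to 3 genes whose levels were most like it over the 16 tumours were named by Pearson r, among 14107 genes, as a description. Icam1 was closest to Ly6f (0.963), Klrc1 (0.951) and Ly6i (0.950), and Birc3 to Gvin1 (0.941), Bcl2a1d (0.940) and Tmem140 (0.925). Klrc1 encodes an NK cell receptor and Bcl2a1d a relative of the survival protein A1. Genes close to Nfkbie were the chemokine gene Ccl8 (0.889) and Ccrl2 (0.883). Nfkbia was closest to Tep1 (0.918), C1ra (0.911) and Stard8 (0.899), and Tnfaip3 to Cstb (0.911), Hprt (0.874) and the receptor Tlr3 (0.873).

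Relb was closest to Jade2 (0.923), Rab13 (0.905) and 9930111J21Rik1 (0.890), and Nfkb1 to Ccdc157 (0.925), Asb7 (0.895) and the transcription factor Foxp1 (0.881). Nfkb2 was closest to Arhgap17 (0.835), Scly (0.822) and the coactivator Crebbp (0.801), Rela to Srpk2 (0.846) and Sharpin (0.825), and Bcl3 to Fmnl3 (0.864), Nckap5l (0.850) and Ajuba (0.820). The mean of the 10 standardised members was most like Cd86 (0.934), a costimulatory molecule of antigen-presenting cells, then Cxcl16 (0.921), Ctss (0.903), Plek (0.898) and Prr5l (0.896).

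Genes around the members were described from 5 lists in the comparison of passages, in which 12.2% of all genes were called. Of 27 genes of the kinase complex and its adaptors, all 27 tested, 2 were higher and 2 lower in passage 2, with a median of 0.01; these 4 of 27 are near the share of all genes. Traf1, an adaptor that NF-kB itself induces, fell by 0.94 ± 0.25 and Cyld, a deubiquitinase that restrains the pathway, fell by 0.44 ± 0.12, whereas Ripk1 rose by 0.40 ± 0.12 and Ikbkg, which encodes the kinase scaffold NEMO, rose by 0.31 ± 0.09 (SE; adjusted p = 0.0295, 0.0373, 0.0444 and 0.0459 by limma). Of 23 receptor and ligand genes tested out of 27, 1 was higher, Tnfrsf11a, which encodes RANK, at 0.79 ± 0.15 (adjusted p = 0.00461). Tnfrsf11a averaged 12.58 ± 0.38 in P2 current tumours, against 11.83 ± 0.20 in P1 RANK-Fc tumours, and 12.59 ± 0.01 in P2 controls, against 11.84 ± 0.04 in P1 controls (SD).

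Of 28 other NF-kB target genes tested out of 35, 3 were higher and 4 lower in passage 2, with a median of 0.01, beside 4.23% of all genes higher and 7.92% lower. Of these, 5 were named by smallest p. Saa3, an acute-phase protein gene, rose by 2.87 ± 0.43 and Bcl2l1, a survival gene, by 0.34 ± 0.10, while the chemokine genes Cx3cl1 and Cxcl1 fell by 0.58 ± 0.12 and 0.81 ± 0.20 and Ptgs2, the inducible cyclooxygenase, by 0.51 ± 0.14 (SE; adjusted p from 0.00131 to 0.0374). Of 14 immediate early genes tested out of 16, beside the same shares of all genes, 2 were higher, Atf3 by 0.84 ± 0.13 and Myc by 0.81 ± 0.12, and 1 lower, Nr4a1, by -1.37 ± 0.16 (SE; adjusted p from 0.000348 to 0.00177). No other Rel or IkB gene was called, of 8 tested out of 9, and the smallest F p-values of that list were 0.115 for Nkrf and 0.175 for Nfkbid.

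Outside the passages 2 genes of these lists were called in treatment comparisons. Of all genes, 0.142% were called for prior-and-current against current RANK-Fc and 0.382% for prior RANK-Fc over both backgrounds. Under other settings the genes called in these comparisons ranged from 0 to 355 and from 0 to 270. How the 2 calls below depend on the settings or on single tumours was not examined. Plau, the urokinase gene and an NF-kB target, was lower in P2 prior-and-current tumours than in P2 current tumours, by -0.71 ± 0.12 (SE, adjusted p = 0.0392 by limma), at 6.61 against 7.31. Nr4a1 was higher with prior RANK-Fc over both backgrounds, by 1.01 ± 0.15 (SE, adjusted p = 0.0157 by limma), at 12.37 in P2 prior-and-current tumours against 11.43 in P2 current tumours, and 12.14 in P2 prior tumours against 10.97 in P2 controls.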

How the data were processed

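Total RNA of 16 tumours was hybridised to 8 two-colour Agilent arrays on 1 slide with 1 scan time. Per the submitters' processing notes, Agilent Feature Extraction 10.7.3.1 made the files. The deposited files hold median pixel intensity and median local background intensity of each spot, which the authors left unnormalised, and Feature Extraction's processed intensity values, per the file headers. They also hold the log10 ratio of red over green, per the file headers, and other quality marks coded 0 or 1, per the file headers. That ratio correlated with the channels' own ratio at r from 0.848 to 0.933. A deposited table of normalised values with 8 columns that match no label was not used.

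Median intensities were corrected with normexp (offset 50), normalised by loess and Aquantile and kept on the log2 scale; 239 to 337 flagged spots per array were left out and repeated spots averaged. A RefSeq table of GRCm38.p6 named 28026 of 55681 probes. A probe passed if all tumours of 1 or more of the 6 groups had it well above background, and a gene's brightest passing probe stood for it, which left 14131 genes.

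R 4.3.3 with limma 3.58.1 and statmod 1.5.0 fitted all 16 channels with 6 group means, a dye term and the array as a block (intraspot correlation 0.218 after a correction for its upward bias in this design, 0.415 before), with 9 residual degrees of freedom and eBayes. Benjamini-Hochberg adjustment ran over all genes, with a threshold of 0.05. The fit was tested on simulated data. There were 11 comparisons and an F test. Correlations used Python 3.11.15 and scipy 1.17.1. Precision is limited by the number of arrays. Levels of different probes were not compared.

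Named genes were the 10 members, the 3 genes closest to each and 5 closest to their mean, and genes of the 5 pathway lists past the threshold, at most 5 a list and comparison by smallest p, or the 2 of smallest F p where none passed. Of the genes closest to a member, 2 are not reported here. The members and lists were chosen with earlier results of these data known. The tumours share no replicate numbers. Alternatives are given in the closing section.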

Additional observations from a re-analysis of the deposited data

How the results depend on the processing

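Each of the 110 member differences was refitted under 11 other settings and without each of the 16 tumours, 2970 values in all. Of these, 2861 stayed on their side of the threshold with the same direction or within the spread of a group. A further 88 uncalled differences moved by more than that spread. The other 21 were lost calls of Nfkb1 or Tnfaip3 between passages, and no call reversed its direction. Uncalled differences did change sign in places. Icam1 in P2 current tumours against P2 controls gave 0.19 with all tumours and -0.58 without c635. The 2 members called between passages over control and current RANK-Fc became 1 with median centring of each channel, 1 without the filter on dim probes, 1 without the dye term and 0 with log ratios alone, and from 0 to 2 when 1 tumour was left out. Median centring put the median of all genes in this comparison at -0.13, against -0.0056 in the reported fit and -0.0109 to 0.0044 under the other 10 settings; Nfkb1 lay below that median at -0.51 and Tnfaip3 above it at 0.48. Log ratios alone compare the passages within few arrays. The adjusted p-values of that comparison ran from 0.0151 to 0.621 for Nfkb1 and from 0.0104 to 0.656 for Tnfaip3. In the F test among the 6 groups the count of 0 ranged from 0 to 1, with 1 member called without c609. The cause was not tested. Over all genes, the 1717 called between passages ranged from 0 to 1940, the 684 of the F test from 0 to 933, the 475 between passage controls from 0 to 586, and the 54 for prior RANK-Fc from 0 to 270. The 20 for prior-and-current against current ranged from 0 to 355, the 10 against control from 0 to 23 and the 1 for prior against control from 0 to 10. The 0 for prior-and-current against prior ranged up to 24 and the 0 of each of the 4 remaining comparisons up to 4. Of the 3 correlated pairs, Relb with Nfkbie passed under every normalisation tried, Birc3 with Icam1 lost its call with median centring (r = 0.669, adjusted permutation p = 0.0700), and Nfkbie with Birc3 lost it without background subtraction (0.631) and with quantile normalisation (0.680). No paired analysis was possible because the labels give the tumours animal codes and no shared replicate numbers.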
